A study of Mus musculus with 7 samples.

Results

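The 10 genes described here act in mitochondrial fusion and fission. They were taken by symbol from a table of 21487 genes, and all 10 were found and passed the filter on low counts. Fusion joins mitochondria: the mitofusins Mfn1 and Mfn2 tether and merge outer membranes, and Opa1 merges inner membranes. Fission is driven by the dynamin DRP1, the product of Dnm1l, which is cytosolic and is brought to the outer membrane by receptors such as MFF, MiD51 (Mief1) and MiD49 (Mief2). Skeletal muscle fibres hold a dense network of mitochondria, and the balance of both processes is known to shape it and to be needed for muscle mass.

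RNA came from the gastrocnemius, a calf muscle, of immobilized mice, a treatment that causes disuse atrophy and that both groups received. The 4 knockout samples were from mice with a skeletal muscle knockout of Park7 (MPARK7KO), the gene of DJ-1, a protein that protects cells and mitochondria from oxidative stress. The 3 control samples were from flox mice, given as WT in the genotype label. The sources used here do not state the Cre driver, the age or the sex of the mice. No sample came from a free limb, and the labels do not say that each sample is a separate mouse, so p-values measure only the spread between these samples.

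The libraries held 24458343 to 26389010 counts. Levels are given as CPM, counts scaled to a common normalized library size, and a change was called at a Benjamini-Hochberg adjusted p under 0.05 in edgeR's quasi-likelihood test over 13409 genes. Park7 itself averaged 245 ± 18.8 CPM in controls (SD, n = 3) and fell to 37.3 ± 2.94 CPM in knockouts (SD, n = 4), where each library lay below all controls. Of all tested genes 14.5% were called, 6.56% higher and 7.94% lower in the knockout, from 1944 calls of which 45.2% were higher (33.5% with upper quartile scaling). The number of calls was 801, 988 and 775 without control 1, 2 or 3, and 937 and 1243 without knockout 3 or 4. Fibre markers showed skeletal muscle but could not tell the gastrocnemius from another muscle. None was at 0, and 11 fast fibre markers summed to 129250 to 157777 CPM in control libraries, against 157130 to 230703 CPM after the knockout. That list did not move as one, with 2 called higher (Myh4 and Actn3) and 2 called lower (Myh1 and Myh2). The sum follows Myh4, the fastest myosin, at 46309 ± 9386 CPM (SD, n = 3) and 99854 ± 23059 CPM (SD, n = 4), whereas Myh1 averaged 10214 and 3729 CPM and Myh2 5447 and 1145 CPM. The 11 slow fibre markers summed to 1985 to 2398 CPM in control libraries, to 771 and 780.4 in knockout 1 and 4, and to 204 and 91.7 in knockout 2 and 3.

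The promoters of 4 genes are shown because they belong to the 2 genes that fell, Mfn1 and Oma1, and to the 2 whose knockout libraries all lay above the controls, Mff and Mief1. Each runs 5′ to 3′ on the gene's strand, which is plus for all 4, and ends before the first base of the gene in both RefSeq and GENCODE (RefSeq, GRCm38.p6). They lie at chr3:32529232-32529464, chr4:103313596-103313811, chr1:82724640-82724889 and chr15:80233830-80234017, in the order printed. Capitals mark a match to CCGGAAG, the core site of GABP, a factor known for nuclear genes of mitochondrial proteins.
Mfn1: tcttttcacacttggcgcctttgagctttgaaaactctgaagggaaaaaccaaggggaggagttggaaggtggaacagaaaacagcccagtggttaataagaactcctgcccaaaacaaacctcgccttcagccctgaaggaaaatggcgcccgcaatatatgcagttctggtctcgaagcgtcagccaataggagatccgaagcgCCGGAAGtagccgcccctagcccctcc
Oma1: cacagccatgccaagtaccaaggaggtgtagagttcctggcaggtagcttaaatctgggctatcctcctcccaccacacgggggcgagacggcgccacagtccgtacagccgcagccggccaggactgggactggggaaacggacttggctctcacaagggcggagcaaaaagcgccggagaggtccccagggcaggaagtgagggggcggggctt
Mff: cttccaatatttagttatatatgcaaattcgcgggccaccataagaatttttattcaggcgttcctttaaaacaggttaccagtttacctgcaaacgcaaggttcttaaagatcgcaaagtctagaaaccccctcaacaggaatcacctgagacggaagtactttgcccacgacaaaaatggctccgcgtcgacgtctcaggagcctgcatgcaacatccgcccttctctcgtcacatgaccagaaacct
Mief1: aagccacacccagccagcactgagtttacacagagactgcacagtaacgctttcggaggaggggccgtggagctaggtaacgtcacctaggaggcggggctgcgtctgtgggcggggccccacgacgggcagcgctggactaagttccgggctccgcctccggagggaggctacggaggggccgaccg

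The match in the Mfn1 promoter is the only capitalized run among these 4 sequences. On either strand of the 250 bases before each start, CCGGAAG stood in 3 of the 14 windows of the 9 members that had any, 1 each of Mfn1, Fis1 and Mief1, and in 6.91% of all 32851 windows. The Mief1 match lies past the end of the stretch printed above, within the first bases of GENCODE's gene. Opa1 was the only member whose window held the palindromic consensus site of NRF1, a regulator of nuclear genes of mitochondrial proteins, which 0.782% of all windows held. None of the member windows held TNAAGGTCA (estrogen-related receptors, 1.14% of all windows), TGACGTCA (CREB, 1.55%), GTAAACA (FOXO, 3.17%) or TGACNNNGC (the NRF2 element, 10.2%). These matches describe letters in a window, not binding.

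Of the 10 fusion and fission genes, 2 were called lower in the knockout, Mfn1 and Oma1, and none was called higher. That is 2 of 10 against 7.94% of all tested genes called lower and 6.56% called higher. At an unadjusted p under 0.05 edgeR gave 6 of the 10, against 31.6% of all genes, and DESeq2 called 1 gene higher, Mff. The knockout and control libraries did not overlap in 6 of the 10 (28.8% of all tested genes), 4 lower (Mfn1, Mfn2, Oma1, Fis1, against 14.8% of all genes) and 2 higher (Mff, Mief1, against 14% of all genes). None of the 10 passed both the adjusted p and a 1.5-fold change, as 7.31% of all genes did, and Mfn1, at a fitted ratio of 0.668, lay just short of that fold. The median log2 fold change was -0.15, beside 0.0057 over all tested genes. In whole muscle, fewer cells of a type and less RNA per cell cannot be told apart.

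**Figure D1:**
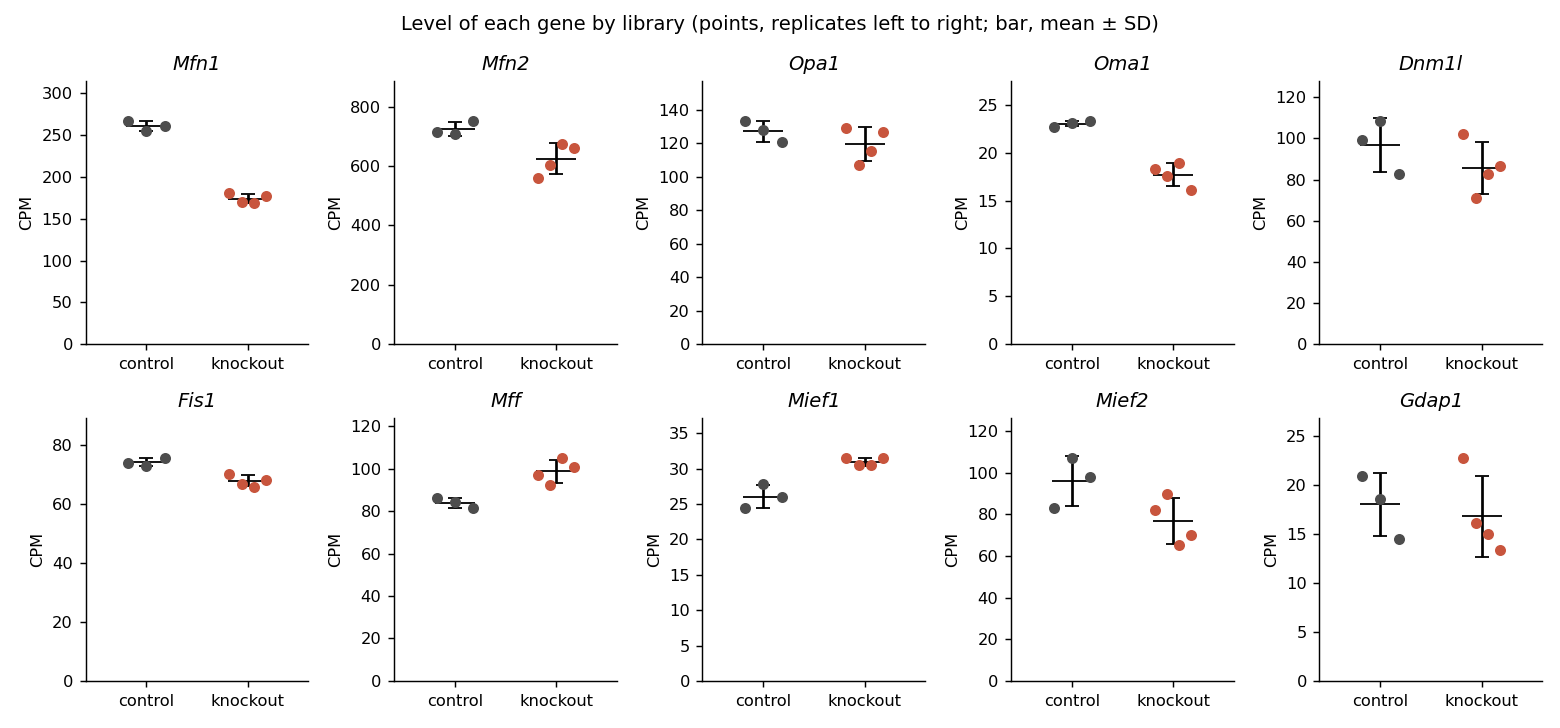
Level of each of the 10 genes in CPM (vertical axes from 0) in the 3 control and 4 knockout libraries; points are libraries in replicate order from left to right and bars are mean ± SD. Mfn1 and Oma1 show the clearest gap between the groups, whereas Opa1, Dnm1l, Mief2 and Gdap1 overlap.

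Levels between genes were compared per kilobase of merged exons. Mfn2 was the most abundant member in the controls, at 143 ± 4.64 CPM per kilobase (SD, n = 3), followed by Fis1 at 67.2 ± 1.22 and Mfn1 at 53.1 ± 1.199. Mff (39.0 ± 1.11) and Mief2 (38.1 ± 4.76) came next and were within their spread of each other, as were Dnm1l (21.3 ± 2.88) and Opa1 (20.2 ± 1.001). Oma1 stood at 12.03 ± 0.155 CPM per kilobase, and Mief1 (4.57 ± 0.294) and Gdap1 (4.57 ± 0.823) were lowest and level with each other. In the knockouts Mff, at 46.1 ± 2.53 CPM per kilobase (SD, n = 4), stood above Mfn1 at 35.4 ± 1.15, the reverse of their order in the controls. Dividing by the longest coding transcript gave the same control order. The other members lie at chr16:29579334-29654884 (Opa1, plus strand), chr16:16312230-16358959 (Dnm1l, minus), chr5:136953275-136966234 (Fis1, plus), chr1:82724890-82752394 (Mff, plus), chr15:80234018-80253371 (Mief1, plus), chr11:60728398-60732951 (Mief2, plus) and chr1:17145362-17164271 (Gdap1, plus) in GRCm38. The lengths of the transcripts present in this muscle are not known, so distances between genes are approximate.

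Mfn1, an outer membrane mitofusin with strong tethering activity, fell in the knockout to 0.668 times its control level. Control 1 to 3 read 266, 255 and 260.1 CPM (6628, 6645 and 6733 reads assigned), and knockout 1 to 4 read 180.5, 169, 169 and 177 CPM (4975, 4450, 4244 and 4384 reads). Both groups were tight, and the highest knockout lay far below the lowest control. The means were 260.4 ± 5.88 CPM (SD, n = 3) and 174 ± 5.64 CPM (SD, n = 4), and the log2 fold change was -0.58 (SE 0.0694, 95% interval -0.74 to -0.43, edgeR adjusted p = 0.00323). By p-value Mfn1 ranked 58 among the 13409 tested genes. The gene lies on the plus strand at chr3:32529465-32579239 (GRCm38, GENCODE), and none of its exons overlaps another annotated gene. Dropping each library in turn gave -0.60 to -0.57 with adjusted p of 0.00494 to 0.0208, and the call held each time.

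Mfn2, the mitofusin that also links mitochondria to the endoplasmic reticulum, was lower on average but did not pass. Control 1 to 3 stood at 715, 707 and 751 CPM, and knockout 1 to 4 at 561, 605, 674 and 661 CPM. The groups did not overlap, yet the gap between knockout 3 and control 2 was small beside the spread within the knockouts. Mfn2 averaged 725 ± 23.5 CPM (SD, n = 3) against 625 ± 52.4 (SD, n = 4), or -0.21 in log2 fold change (95% interval -0.42 to -0.0077, edgeR adjusted p = 0.146). Mfn2 lies at chr4:147873599-147904704 on the minus strand, 2.99 Mb from Park7 on the same chromosome. Whether that neighbourhood bears on its level was not tested.

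Opa1, the dynamin of the inner membrane, did not differ detectably. Control 1 to 3 read 133, 128 and 121 CPM, and knockout 1 to 4 read 129, 107, 115 and 127 CPM, so that the groups overlapped. Means were 127 ± 6.29 (SD, n = 3) and 119 ± 10.3 CPM (SD, n = 4). The log2 fold change was -0.09 with a 95% interval of -0.29 to 0.11 (edgeR adjusted p = 0.519), which leaves room for a modest change either way.

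Oma1, the stress-activated protease that cleaves OPA1 and so halts inner membrane fusion, fell. Control 1 to 3 read 22.7, 23.1 and 23.3 CPM on 565, 603 and 603 reads. Knockout 1 to 4 read 18.3, 17.6, 18.9 and 16.1 CPM on only 400 to 505 reads each. The controls were nearly equal and each knockout lay below them. The control mean of 23.0 ± 0.297 CPM (SD, n = 3) compared with 17.7 ± 1.195 CPM in the knockout (SD, n = 4), a ratio of 0.769. On the log2 scale Oma1 differed by -0.38 (SE 0.0833, 95% interval -0.57 to -0.19, edgeR adjusted p = 0.0208). The call ended without control 1 (adjusted p = 0.0564), control 2 (0.0614) or control 3 (0.0724), with a log2 fold change of -0.40 to -0.37. Oma1 is also on chromosome 4 (chr4:103313812-103371868, plus strand), 47.5 Mb from Park7.

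**Figure D2:**
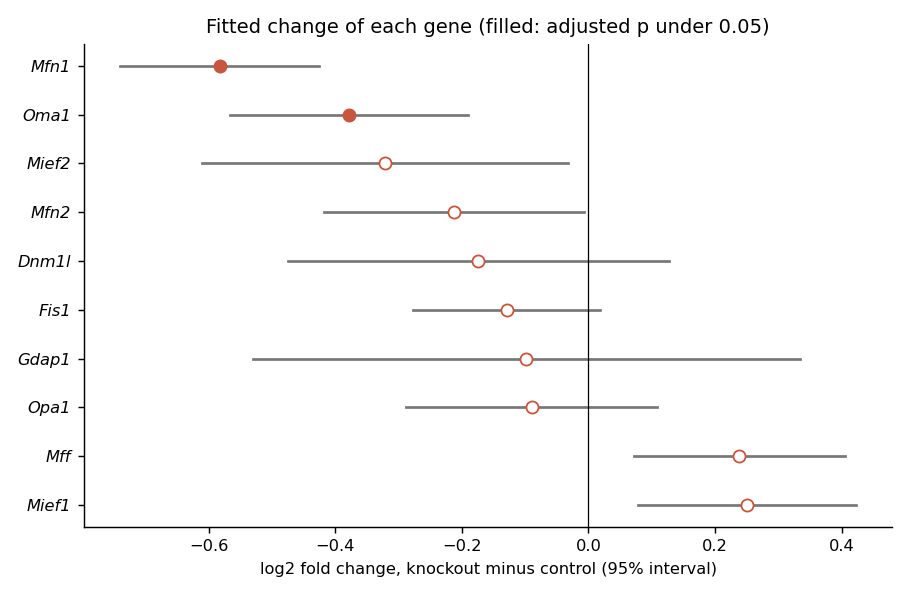
Fitted log2 fold change (horizontal axis, knockout minus control) of each of the 10 genes with its 95% interval as a bar; filled points have an adjusted p under 0.05. Mfn1 (-0.58) and Oma1 (-0.38) are filled, and Mff and Mief1 are the only genes to the right of 0.

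Among the fission genes, none passed the test in either direction. Dnm1l, which encodes the constricting dynamin DRP1 itself, stood at 99.0, 108 and 82.6 CPM in control 1 to 3 and at 102, 71.2, 82.8 and 86.6 CPM in knockout 1 to 4. Its groups overlapped widely, and control 3 lay below 3 of the 4 knockouts. Means were 96.65 ± 13.1 (SD, n = 3) and 85.7 ± 12.8 CPM (SD, n = 4), and the log2 fold change was -0.17 (95% interval -0.47 to 0.13, edgeR adjusted p = 0.405). Its exons share 243 bases with the antisense gene Gm49521 in GENCODE, and no source used here states the strand of the counting.

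Mff, a tail-anchored receptor that recruits DRP1, was higher in every knockout library. The controls read 86.1, 84.2 and 81.3 CPM and the knockouts 97.2, 92.4, 105 and 101 CPM. Its averages of 83.9 ± 2.39 (SD, n = 3) and 98.9 ± 5.44 CPM (SD, n = 4) gave 0.24 in log2 fold change (SE 0.0739, 95% interval 0.072 to 0.41). The edgeR adjusted p was 0.0610, and Mff was called with DESeq2 (adjusted p = 0.0313) and without knockout 2 (edgeR adjusted p = 0.0432). Its exons share 195 bases with C430014B12Rik on the other strand, and its count in knockout 1 was not whole, so part of it was an estimate.

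Mief1 encodes MiD51, an outer membrane receptor that holds DRP1, and it too was higher in every knockout library without passing. The controls read 24.4, 27.8 and 25.96 CPM and the knockouts 31.5, 30.5, 30.6 and 31.5 CPM. The knockouts were closer to one another than the controls were. Mief1 averaged 26.1 ± 1.68 (SD, n = 3) against 31.0 ± 0.570 CPM (SD, n = 4), with 0.25 as its log2 fold change (SE 0.0761, 95% interval 0.079 to 0.42, edgeR adjusted p = 0.0575). A second coding gene, AC140267.1, shares 213 exonic bases with Mief1 on the same strand.

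Mief2 encodes MiD49, the paralog of MiD51, and its mean lay on the other side. The controls read 83.3, 107 and 97.7 CPM and the knockouts 82.1, 89.7, 65.5 and 70.0 CPM. Knockout 1, 3 and 4 were below every control, knockout 1 by little, whereas knockout 2 was above control 1. Means were 96.0 ± 12.01 (SD, n = 3) and 76.8 ± 11.1 CPM (SD, n = 4), and the log2 fold change of -0.32 did not pass (95% interval -0.61 to -0.033, edgeR adjusted p = 0.124).

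Fis1, a small tail-anchored protein linked to fission and to mitochondrial quality control, did not pass. The controls read 73.7, 72.9 and 75.5 CPM and the knockouts 70.1, 66.8, 65.7 and 68.1 CPM. All knockouts lay below all controls, by a small margin. Means were 74.0 ± 1.34 (SD, n = 3) and 67.7 ± 1.87 CPM (SD, n = 4), with a log2 fold change of -0.13 (95% interval -0.28 to 0.019, edgeR adjusted p = 0.212).

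Gdap1, an outer membrane protein of fission whose mutation causes a hereditary neuropathy, had the widest interval of the 10. The controls read 20.9, 18.6 and 14.5 CPM and the knockouts 22.8, 16.2, 15.02 and 13.3 CPM. The highest library was a knockout and so was the lowest. The log2 fold change was -0.10 (95% interval -0.53 to 0.33, edgeR adjusted p = 0.760) and turned to 0.015 without control 1. Because the gene is known from nerve, Schwann cell markers are given beside it. The 11 markers summed to 309, 78.7 and 95.1 CPM in control 1 to 3 and to 51.8 to 69.3 CPM across knockout libraries. Of the 11, 1 was called lower, Pmp22, a share near the 7.94% of all tested genes. None of these markers was at 0. Control 1 was the highest control for both these markers and Gdap1, whereas knockout 1 had the highest Gdap1 level of all libraries with marker levels below every control. The part of nerve RNA in the Gdap1 values was not tested.

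Ratios within a library do not depend on scaling, and 4 pairs of members were compared. The count ratio of Mfn1 to Mfn2 was 0.372, 0.360 and 0.346 in the controls and 0.322, 0.280, 0.251 and 0.267 in the knockouts. All knockout ratios lay below all control ratios, a log2 difference of -0.37 (control SD 0.0528, knockout SD 0.153). The 2-sided exact permutation test over 35 splits gave p = 0.0571, adjusted to 0.0762 over the 4 ratios, which did not pass. The smallest p this design allows is 0.0286 before adjustment. A ratio that reached it alone would still not pass after adjustment over 4. The test could therefore hardly pass any ratio, and it does not settle whether the 2 mitofusins changed unequally.

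The other 3 pairs did not pass either. The ratio of Mief1 to Mief2 was 0.259 to 0.294 in the controls and 0.340 to 0.467 in the knockouts, a log2 difference of 0.58 (exact permutation p = 0.0571, adjusted 0.0762). The ratio of Mff to Fis1 was 1.08 to 1.17 in the controls and 1.38 to 1.60 in the knockouts, a log2 difference of 0.37 (exact permutation p = 0.0286, adjusted 0.0762). The ratio of Opa1 to Oma1 was 5.17 to 5.86 in the controls and 6.07 to 7.87 in the knockouts, a log2 difference of 0.29 (exact permutation p = 0.0857, adjusted 0.0857). In each of these pairs the groups did not overlap, and none passed after adjustment, not even Mff to Fis1 at the smallest p possible. The summed CPM of Mfn1, Mfn2 and Opa1 over that of Dnm1l, Fis1, Mff, Mief1 and Mief2 was 2.72 to 3.12 in the controls and 2.27 to 2.74 in the knockouts, where control 2 lay below knockout 3.

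**Figure D3:**
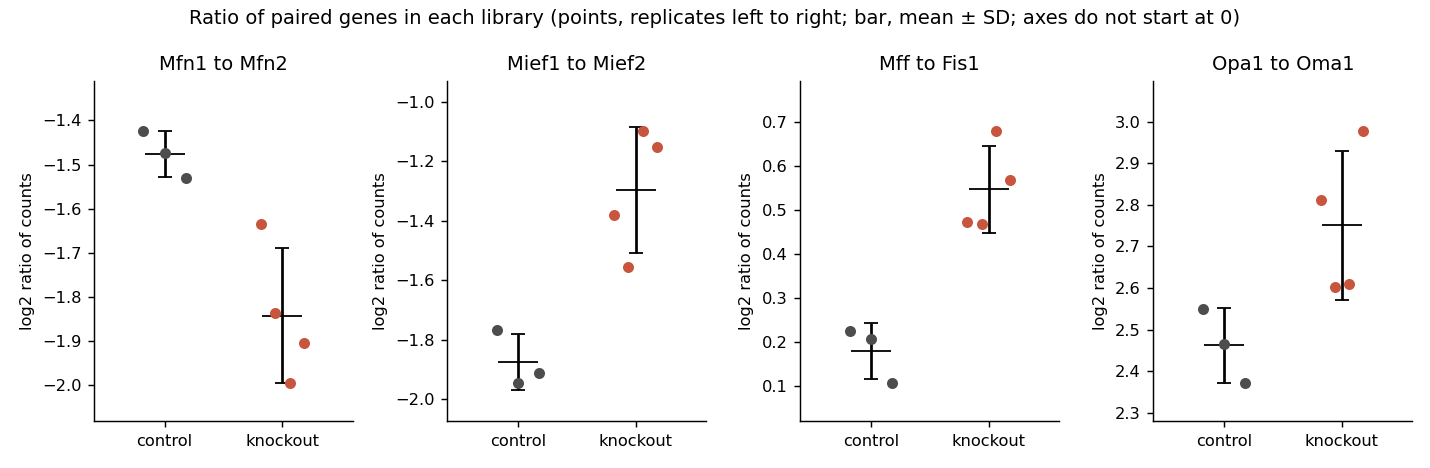
Log2 ratio of the counts of 4 pairs of genes (vertical axes, not from 0) in each control and knockout library, with mean ± SD. In all 4 pairs the 4 knockout libraries lie on one side of the 3 control libraries, with adjusted exact permutation p of 0.0762 to 0.0857.

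Of 17 other regulators of fission tested, 4 were called lower and 1 higher, beside 7.94% and 6.56% of all tested genes. Their median log2 fold change was 0.012. Mtfp1, an inner membrane protein that promotes fission, averaged 43.1 ± 3.06 CPM in controls and 30.4 ± 1.60 CPM in knockouts and fell by 0.50 in log2 units (SE 0.0814, edgeR adjusted p = 0.00769). Mtfr1, a fission regulator, fell by 0.47 (SE 0.0867, adjusted p = 0.0114), and both calls held without each library in turn. Akap1, the anchor of protein kinase A that restrains DRP1, fell by 0.43 (SE 0.0865, adjusted p = 0.0149), a call that leaving out control 1 (0.0526) or control 2 (0.0536) ended. Inf2, a formin that builds actin at fission sites, fell by 0.56 (adjusted p = 0.0197), and its call ended when control 2 (0.0682), control 3 (0.0506) or knockout 3 (0.0550) was dropped. Stx17, a syntaxin of mitochondrial contact sites and autophagy, rose by 0.30 (adjusted p = 0.0225), a call absent when control 1 (0.0854), control 3 (0.0871) or knockout 3 (0.0631) was dropped. When control 2 was dropped 2 of the 17 were called lower, and 2 were called higher when knockout 2 was dropped or with DESeq2. Inf2 and Stx17 were chosen after their values were seen, to spell out the counts.

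Of 11 tested fusion regulators outside the members, 1 was called higher (6.56% of all tested genes were) and none lower, with a median of 0.15. It was Bak1, a pro-apoptotic pore protein of the outer membrane that also affects mitofusins, with 14.8 ± 0.878 CPM in controls and 20.2 ± 1.03 CPM in knockouts, and it rose by 0.45 in log2 units (SE 0.087, edgeR adjusted p = 0.0134). Dropping control 3 ended that call (0.0583). Pink1, the kinase that tags damaged mitochondria and leads to the removal of mitofusins, averaged 839 ± 86.8 CPM against 738 ± 60.5 CPM in the knockout (adjusted p = 0.255). Its partner Park2, the ligase parkin, read 9.89 ± 1.48 and 8.37 ± 0.481 CPM (adjusted p = 0.215). These 2 were picked after their values were seen, for their known link to mitofusins.

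Among genes of OPA1 processing and inner membrane shape, more were called lower than higher. In the 8-gene list of OPA1 proteases and prohibitins 2 of 8 were called lower and none higher (median -0.12). Of all tested genes 7.94% were called lower and 6.56% higher. By sign, called or not, 5 of the 8 had a negative log2 fold change and 3 a positive one. The 2 called were Phb, a prohibitin scaffold, lower by 0.30 (SE 0.0683, edgeR adjusted p = 0.0220), and Spg7, the protease paraplegin, lower by 0.30 (SE 0.0867, adjusted p = 0.0469). Phb was called only without knockout 1, 2 or 4 (0.0579 to 0.0713 without the others), and Spg7 lost its call without each library in turn (0.0650 to 0.171). Yme1l1, the protease that cleaves OPA1 alongside OMA1, had a log2 fold change of 0.16 and did not pass (adjusted p = 0.191).

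The next list covers the MICOS complex, which forms the necks of cristae, and inner membrane shape. In it 4 of 15 were called lower and none higher (median -0.20), beside 7.94% and 6.56% of all tested genes. By sign, called or not, 12 of the 15 had a negative log2 fold change and 3 a positive one. Minos1, a core MICOS subunit, with 88.1 ± 3.82 CPM in controls and 64.9 ± 5.62 CPM in knockouts, fell by 0.44 in log2 units (SE 0.085, edgeR adjusted p = 0.0131) and stayed called as each library was dropped in turn. Apool, a MICOS subunit that binds cardiolipin, fell by 0.37 (adjusted p = 0.0141), a call lost on dropping control 2 (0.0504) or control 3 (0.0537). Chchd3, the MICOS subunit MIC19, fell by 0.30 (adjusted p = 0.0276) and was called only without knockout 1 or 2 (0.0541 to 0.0895 without the others). Mtx2, an outer membrane partner of MICOS chosen after its values were seen, fell by 0.59 (adjusted p = 0.0374) and was called only without knockout 1 (0.0575 to 0.120 without the others). With control 1, 2 or 3 dropped, 2, 1 and 1 of the list were called, with knockout 3 or 4 dropped 2, and with knockout 1 dropped or upper quartile scaling 6. The mitofilin gene Immt had a log2 fold change of -0.25 (adjusted p = 0.0766). Yme1l1 and Immt did not pass and were picked after their values were seen.

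**Figure D4:**
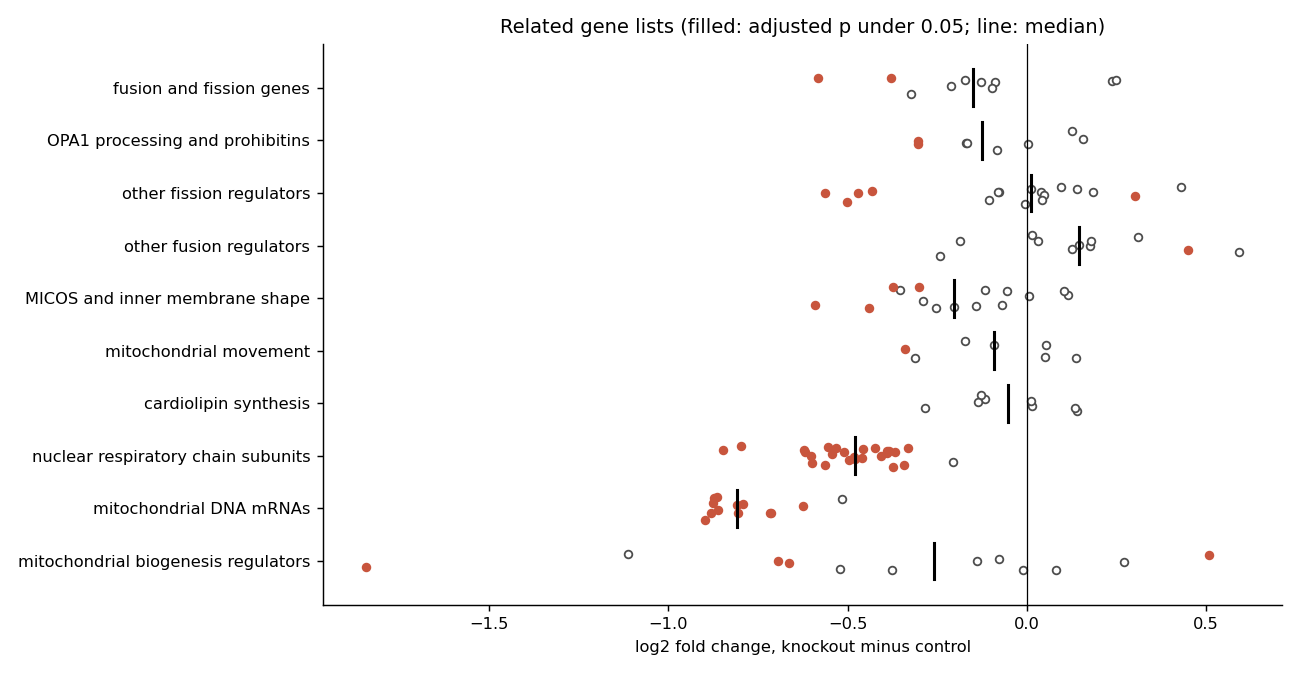
Log2 fold change (horizontal axis, knockout minus control) of each tested gene in the fusion and fission set and in 9 related lists; filled points have an adjusted p under 0.05 and vertical lines are list medians. The respiratory chain lists lie wholly left of 0, whereas the fusion and fission genes and their regulators spread to both sides.

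RNA of the respiratory chain fell more widely than that of the fusion and fission genes. Of 26 nuclear subunits of the respiratory chain 25 were called lower and none higher, with a median of -0.48 (16 of 26 without control 1), among them Cox7a1, Sdhb and Ndufs8. Of the 13 mRNAs of mitochondrial DNA 12 were called lower (median -0.81), and their share of all counts was 16.99% to 19.97% in the controls and 8.72% to 11.6% in the knockouts. Mfn1, with a log2 fold change of -0.58, lay beyond the median of the nuclear subunits, and Oma1 (-0.38) and the 8 others lay short of it. Whether the fall of Mfn1 goes with mitochondrial content was not tested. Of 12 regulators of mitochondrial content 3 were called lower and 1 higher (median -0.26). The shares of all tested genes were 7.94% lower and 6.56% higher.

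Marker lists of fibre types and of other cells differed in how many of their genes were called. Of all tested genes 7.94% were called lower and 6.56% higher. Of 11 slow fibre markers 6 were called lower and none higher, and their summed level was lower in every knockout than in any control. Knockout 2 and 3, with the least slow fibre RNA, read 169 CPM each for Mfn1, and knockout 1 and 4, with the most, read 180.5 and 177 CPM. For Oma1 the same pairs read 17.6 and 18.9 CPM against 18.3 and 16.1 CPM. Fibroblast markers summed to 296 to 693 CPM in controls and 205 to 332 CPM in knockouts, with 3 of 6 called lower, Lum, Col1a1 and Col3a1. For Col1a1 (27.9, 18.2 and 98.1 CPM in control 1 to 3) and Col3a1 (79.1, 45.3 and 204 CPM) control 3 was highest and the groups overlapped. Col1a2, Dcn and Pdgfra were not called (edgeR adjusted p = 0.0689, 0.680 and 0.360). Endothelial markers (2 of 7 lower) summed to 261 to 322 against 222 to 256 CPM, and pericyte and smooth muscle markers (4 of 7 lower) to 389 to 528 against 353 to 423 CPM. Macrophage markers (2 of 7 lower) summed to 32.7 to 41.8 against 20.6 to 34.8 CPM, and adipocyte markers (2 of 5 lower) to 130 to 148 against 83.7 to 126 CPM. Of 4 satellite cell markers edgeR called 0, and 0 had an unadjusted p under 0.05; they summed to 11.001 to 12.3 against 9.84 to 9.95 CPM. No marker of these lists was at 0 in any library, and their part in the fall of Mfn1 and Oma1 was not tested.

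Over the 7 libraries, 3 genes ran closest to Mfn1 in log2 CPM after each gene's control mean was subtracted. They were Got2, the mitochondrial aspartate aminotransferase, with a root mean square difference of 0.0507, Idh3a, a subunit of isocitrate dehydrogenase, with 0.0540, and Galt, an enzyme of galactose breakdown, with 0.0582. Their log2 fold changes were -0.61, -0.53 and -0.54, beside -0.58 for Mfn1, a nearness that follows from how they were chosen. The 4th gene had 0.0596, so the order among neighbours is narrow.

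**Figure D5:**
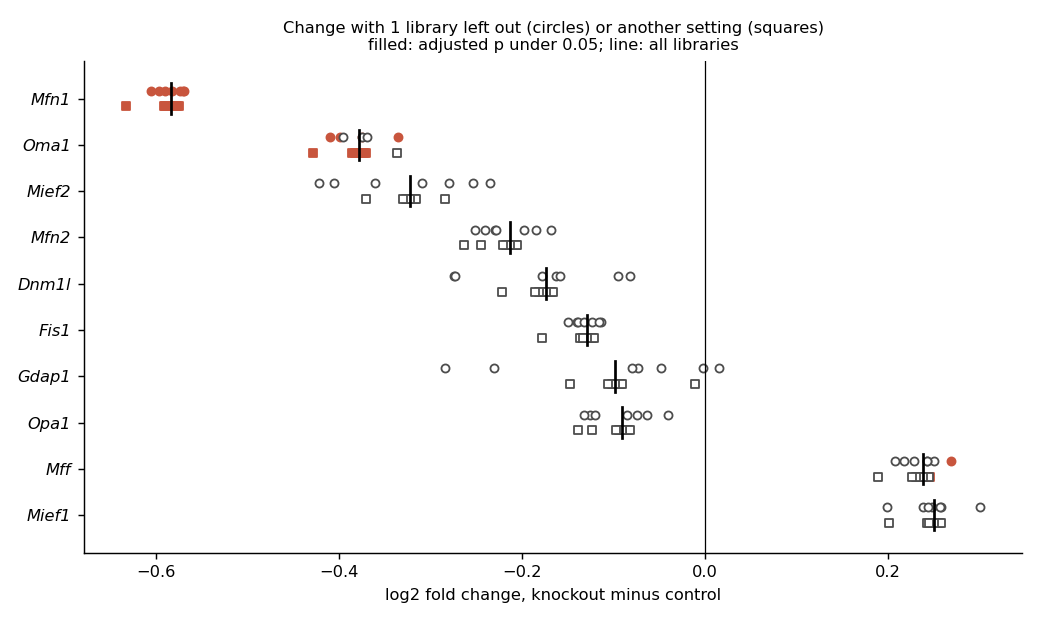
Log2 fold change (horizontal axis, knockout minus control) of each gene with 1 library left out (circles) and under the other settings (squares); filled marks have an adjusted p under 0.05 and vertical lines are the values with all libraries. Mfn1 stays filled from -0.63 to -0.57, Oma1 is filled in part, and Mff is filled in 2 marks.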

How the data were processed

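Per the labels, total RNA was sequenced as 150 base paired ends on a BGI instrument. Per the submitters' processing notes, which give no roles, the build was mm10 and the tools were STAR 2.7.10a, RSEM 1.2.28 and DESeq2 1.3.40. The deposited values are, by their totals and fractional entries, expected counts that were not normalized, and were rounded here. The sources used here name no annotation or strand setting. Genes were filtered by filterByExpr (minimum count 10), scaled by TMM and tested in R 4.3.3 with edgeR 4.0.16 (quasi-likelihood F test). On simulated data the fit recovered 10% of genes changed 1.25-fold, 22% at 1.5-fold, 70% at 2-fold and 96% at 4-fold. Of its calls there, 4.81% were false. The simulation changed 50 of 13409 genes at each fold, far fewer than the 1944 called here. The adjustment for multiple tests is stricter when fewer genes change, so these rates need not hold for this fit. A gene that did not pass may still have changed. Standard errors were derived from the fold change and its F statistic. Intervals cover 95%. Positions and lengths came from GENCODE M21, promoters from RefSeq. Alternatives, DESeq2 1.42.0 among them, are in the closing section. The rule for named genes took the 10 members, Park7, up to 3 called genes per list and the 3 nearest patterns. Members and lists were chosen with earlier results of these data known.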

Additional observations from a re-analysis of the deposited data

How the results depend on the processing

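All 10 members kept their direction with DESeq2, a robust prior, a replicate block, RLE factors, upper quartile factors, all genes kept, a minimum mean count of 10 or mitochondrial DNA mRNAs left out (that list then has no value). With 1 library left out the exception was Gdap1, which ran from -0.28 to 0.015, the latter without control 1. The number of genes called ran from 775 to 2025 with 1 library left out (lower 507 to 1077, higher 255 to 948). The number of members called lower then ran from 1 to 2 and higher from 0 to 1. DESeq2 called 1 member higher, Mff. The replicate numbers do not pair the samples by the labels. Same-numbered deviations correlated at 0.0945, 0.134 and 0.0854, and each sample numbered 1 to 3 correlated best with its own number, a hint from the data and not the design. Knockout 4 has no control of its number, so with the replicate block it adds nothing to the fitted change. A call lost with the block may therefore also reflect fewer samples. With the replicate block 1224 genes were called, 669 lower and 555 higher, and 1 member was lower, Mfn1 (Oma1 adjusted p = 0.0709). With that block 0 of the OPA1 processing list, 2 of the MICOS list and 0 of the movement list were called lower, and 0 of the fission regulators and 0 of the regulators of mitochondrial content higher. The genes named from the lists that lost their call with it were Phb, Spg7, Chchd3, Mtx2, Rhot2, Stx17, Ppard and Ppargc1b (adjusted p = 0.0547 to 0.0987). The 4 ratios kept their direction with a prior count of 2 and with 1 library left out, when the smallest possible p was 0.0667 or 0.1. The log2 difference then ran from -0.44 to -0.32 for Mfn1 to Mfn2, 0.51 to 0.66 for Mief1 to Mief2, 0.32 to 0.39 for Mff to Fis1 and 0.21 to 0.34 for Opa1 to Oma1. Gdap1, Mief1 and Oma1 had the fewest counts of the members.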

Other observations

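Of all tested genes, 7.94% were called lower and 6.56% higher. Of 7 tested genes that move mitochondria along the cytoskeleton, 1 was called lower and none higher (median log2 fold change -0.09). It was Rhot2, an outer membrane GTPase that links mitochondria to motors, with 101 ± 10.8 CPM in controls (SD, n = 3) and 79.8 ± 1.58 CPM in knockouts (SD, n = 4), which fell by 0.34 in log2 units (SE 0.084, edgeR adjusted p = 0.0298). Its call survived dropping control 1 or knockout 2, and ended on dropping any of the other libraries (0.0507 to 0.0899). Its paralog Rhot1 read 48.7 ± 2.76 and 50.5 ± 5.41 CPM (adjusted p = 0.746). Of 8 genes that make or remodel cardiolipin, the lipid that OPA1 binds, none was called in either direction by edgeR or DESeq2. At an unadjusted p under 0.05 edgeR gave 1, Ptpmt1, whose adjusted p was 0.0511. With RLE or upper quartile factors, a minimum mean count of 10 or mitochondrial DNA mRNAs left out, 1 of the 8 was called lower. Rhot1 and Ptpmt1 were picked after their values were seen.

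Among regulators of mitochondrial content, Esrrb, an estrogen-related receptor, with 8.79 ± 1.79 CPM in controls and 2.44 ± 0.528 CPM in knockouts, fell by 1.84 in log2 units (SE 0.202, edgeR adjusted p = 0.003). That call held without each library in turn. Perm1 and Ppargc1b fell by 0.69 and 0.66 (adjusted p = 0.0416 and 0.0498), and each was called only without knockout 2 when 1 library was left out. With a robust prior their adjusted p was 0.0525 and 0.051. Ppard rose by 0.51 (adjusted p = 0.0299) and was called only without knockout 1 or 2. Without knockout 2, 6 of the 12 were called lower, and 1 was without any other library. Ppargc1b was chosen after its values were seen.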
